A study of Caenorhabditis elegans with 6 samples.

Results

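The messenger RNA of wild-type L1 larvae of the nematode Caenorhabditis elegans is described here from the 2 libraries of strain N2, out of 6 libraries in the series. They were taken because only their labels name wild-type N2, and no measured value entered that choice. N2 is the standard laboratory wild type and carries no transgene. The other 4 libraries come from the strains HW3826 (maIs105, a col-19::gfp array) and GR1395 (mgIs49), with 2 libraries each, and are used below only to ask where genes with no count in N2 had counts. Per the labels, larvae of all strains were starved and synchronised overnight in M9 buffer, then grown for 4 hours at 25 °C and harvested whole, and polyA RNA was sequenced. Whether the larvae were fed during those 4 hours is not stated. The labels do not say whether the libraries came from separate cultures, so the spread between them, given as an SD with n = 2, may be technical. With 1 group there is no comparison between conditions and no test, and every value below is a description.

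A C. elegans larva hatches with its main tissues formed: intestine, epidermis, muscle, pharynx and a nervous system. Without food it halts at the L1 stage, and on release it resumes growth, blast cell divisions and, later, the moult. At this stage the future germ line consists of a pair of primordial germ cells, and sperm, oocytes, yolk and the adult cuticle are made only at later stages. Cuticle collagens, moulting genes and many epidermal genes are transcribed in pulses within each larval stage in this species. In whole-animal RNA, fewer cells of a type and less RNA per cell cannot be told apart.

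The libraries held 42593688 counts in replicate 1 and 45867714 counts in replicate 2, over 20190 genes. Levels are given as counts per 1000000 counts (CPM) or, to compare genes of different length, as transcripts per 1000000 (TPM), the count per base of deposited gene length scaled to a fixed total. A gene was counted as detected when it had more than 3 counts in each library. A floor of 3 counts was 0.0704 CPM in replicate 1 and 0.0654 CPM in replicate 2, and it covers counting error only. Of the 20190 genes, 15314 (75.8%) were detected and 2040 (10.1%) had no count in either library. A further 1844 genes had counts but at most 3 in each library, and 992 passed 3 counts in 1 library only. The genes with at most 3 counts in each library took 0.00509% of the counts in replicate 1 and 0.00482% in replicate 2.

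A small number of genes made most of the transcripts. In both libraries 12396 genes reached 1 TPM, 7633 reached 10 TPM, 1183 reached 100 TPM and 137 reached 1000 TPM. The 137 genes held 46.6% of all TPM in replicate 1 and 49% in replicate 2. Ranked by mean TPM, 45 genes held 25% of the total, 160 held 50%, 1161 held 75% and 3798 held 90%. Without the length correction the distribution was flatter, and 410 genes were needed to reach 50% of the counts. The median detected gene stood at 10.7 TPM, with quartiles at 2.03 and 32.1 TPM. Genes known only by a sequence name numbered 8981, of which 6245 were detected, and they held 15.9% of TPM in replicate 1 and 15.6% in replicate 2.

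**Figure D1:**
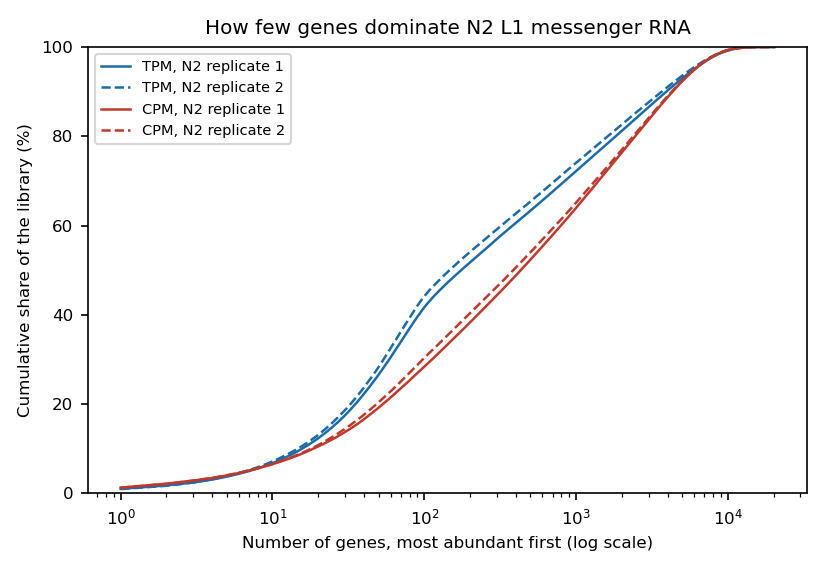
Cumulative share of each N2 library (vertical axis, percent) against the number of genes counted from the most abundant down (horizontal axis, log scale), for TPM in blue and CPM in red, with replicate 1 as solid and replicate 2 as dashed lines. The TPM curves bend after about 100 genes, at 41.7% in replicate 1 and 44.2% in replicate 2, and the CPM curves lie below them there.

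Ribosomal proteins dominated. The 84 genes matched as cytosolic ribosomal proteins held 35.2% ± 1.62 of TPM (SD, n = 2), with 34.1% in replicate 1 and 36.4% in replicate 2. The same genes took 17.9% and 20.1% of the counts, because the genes are short, with a median length of 545 bases. Besides genes named rpl, rps or rla, the 84 took in rack-1 (4784 and 4929 TPM), ubl-1 (3719 and 4454 TPM) and ubq-2 (3872 and 3858 TPM). All 84 were detected and 79 reached 1000 TPM in both libraries. These genes were found by their Ensembl names, and 3 genes with a sequence name there are named as ribosomal proteins by RefSeq: Y37E3.8 (rpl-27A, rank 5 of all genes, 6117 and 7366 TPM), C37A2.7 (rplp-2.1, 3027 and 4387 TPM) and W01D2.1 (rpl-37.1, 2544 and 2619 TPM). With them, 87 genes held 35.2% of TPM in replicate 1 and 37.8% in replicate 2. The 87 genes made up 19 of the 20, 45 of the 50 and 79 of the 100 most abundant genes.

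Within the 84 genes the levels were close to each other, with quartiles at 3236 and 5388 TPM. The highest was rpl-7 (chromosome I, 111038 to 112417), at 7422 TPM in replicate 1 and 7163 TPM in replicate 2. Next came rps-8, with 6667 and 7232 TPM, and rla-0, the stalk protein P0, with 6546 and 6940 TPM. The others among the 20 most abundant genes were rpl-24.1, rps-1, rps-11, rpl-41.2, rps-7, rps-9, rpl-3, rpl-17, rpl-21, rpl-6, rps-0, rpl-15, rps-24, rpl-2 and rps-4, whose mean levels ran from 6640 TPM for rpl-24.1 to 5589 TPM for rps-4. The replicates of rps-9 were the farthest apart of these, at 4890 and 7009 TPM.

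A few genes named as ribosomal proteins stood far below the rest. The gene named rpl-42 had 11 counts in replicate 1 and 27 in replicate 2, or 0.556 and 1.2 TPM. The genes rpl-11.1 (204 and 209 TPM), rpl-41.1 (222 and 293 TPM) and rpl-24.2 (253 and 289 TPM) were also low, and rpl-37 (584 and 628 TPM) was the other gene below 1000 TPM. Reads of near-identical copies such as rpl-41.1 and rpl-41.2 could have been split between them in counting, so the levels of single copies are uncertain.

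Other parts of the translation machinery followed. The most abundant gene of all was eef-1A.1 (chromosome III, 6970026 to 6971712), an elongation factor that delivers aminoacyl-tRNAs to the ribosome, at 10294 TPM in replicate 1 and 9644 TPM in replicate 2. Its relative eef-1A.2 had 3545 and 2886 TPM, and eef-2, the translocation factor, had 3830 and 3493 TPM. The 6 elongation factor genes together held 2.12% and 1.99% of TPM. The 31 translation initiation factor genes were all detected but held less, 0.523% and 0.511%, with inf-1 highest at 733 and 634 TPM. All 32 aminoacyl-tRNA synthetase genes were detected, 16 of them at 100 TPM or more in both libraries, led by kars-1 with 249 and 223 TPM.

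The abundant genes outside the ribosome covered lipid binding, digestion, energy and protein folding. The fatty acid and retinol binding protein gene far-1 (chromosome III, 9080371 to 9081179) had 5063 and 5352 TPM. The mitochondrial adenine nucleotide carrier ant-1.1 (chromosome III, 13463163 to 13464652) had 5153 and 5082 TPM, and the aspartyl protease asp-1 (chromosome V, 19049562 to 19050752), known from the intestine, had 5136 and 4652 TPM. Below them, with elongation factors and the sequence-named Y82E9BR.3 left aside, came tct-1, a homologue of the translationally controlled tumour protein (3109 and 3998 TPM), the saposin-like spp-14 (2637 and 3156 TPM), the calreticulin crt-1 (2793 and 2994 TPM) and icd-1, a subunit of the nascent polypeptide-associated complex (2587 and 2712 TPM). The S-adenosylhomocysteine hydrolase ahcy-1 had 2459 and 2305 TPM, the HSP70 chaperone hsp-1 had 2072 and 1918 TPM and the poly(A)-binding protein pab-1 had 2079 and 1885 TPM. Y82E9BR.3, a gene with a sequence name only, had a mean of 4328 TPM.

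**Figure D2:**
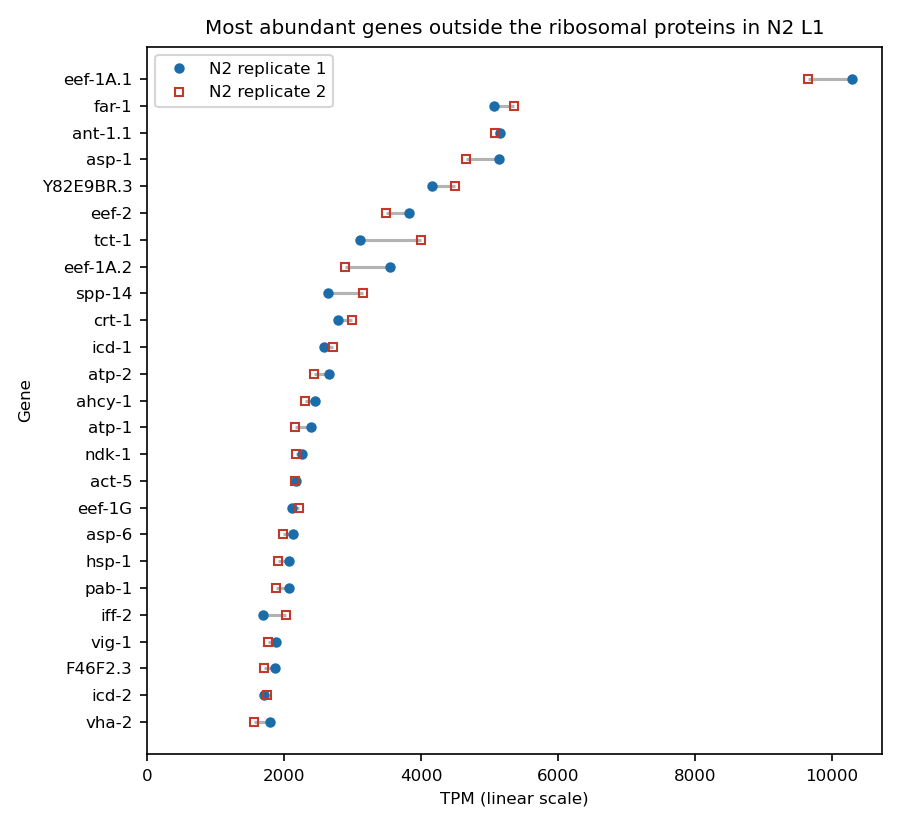
TPM (horizontal axis, linear scale) of the 25 most abundant genes outside those matched as ribosomal proteins by either naming. Replicate 1 is shown as filled circles and replicate 2 as open squares, with a grey line joining them. The genes left out include rack-1, ubl-1 and ubq-2. eef-1A.1 stands apart at 10294 and 9644 TPM, and the replicates of tct-1 are apart at 3109 and 3998 TPM.

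Genes of energy metabolism were high as groups. The 54 nuclear genes matched as oxidative phosphorylation subunits held 2.49% of TPM in replicate 1 and 2.50% in replicate 2, and 53 were detected. Among these 54 genes the highest were the ATP synthase subunit genes atp-2 (2663 and 2440 TPM) and atp-1 (2390 and 2164 TPM). Any subunit gene that the name match missed is left out of this ranking and of the share. The exception was the cytochrome c gene cyc-2.2, which had no count. All 19 tricarboxylic acid and glyoxylate cycle genes were detected at a median of 272 TPM. Citrate synthase, cts-1, led them with 1599 and 1444 TPM, followed by icl-1, the glyoxylate cycle enzyme that lets this animal make sugar from fat, with 1115 and 1008 TPM, and the malate dehydrogenase mdh-2 with 996 and 890 TPM. The 22 genes of glycolysis and gluconeogenesis had a median of 178 TPM, with the glyceraldehyde-3-phosphate dehydrogenase gpd-3 (758 and 704 TPM), the aldolase aldo-2 (704 and 758 TPM) and gpd-2 (615 and 576 TPM) at the top. gpd-2 and gpd-3 are near-identical copies, and their separate levels are uncertain. The gluconeogenic carboxykinase genes pck-2 (608 and 573 TPM) and pck-1 (309 and 318 TPM) were also abundant. At the low end was pfk-1.2, a phosphofructokinase gene, with 0.604 and 0.393 TPM against 68.2 and 62.1 TPM for pfk-1.1.

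The 12 protein genes of the mitochondrial genome were all detected and held 0.589% of TPM in replicate 1 and 0.430% in replicate 2. They were uneven: COX3, a cytochrome c oxidase subunit, had 1750 and 1202 TPM, ND1 had 501 and 436 TPM, and ND6 had 33.8 and 69.8 TPM. Tails of mitochondrial messages differ from those of nuclear ones, so a share in libraries of polyA RNA is no measure of the share in the cell.

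Intestinal genes were the highest of the tissue lists. All 20 matched intestinal genes were detected at a median of 189 TPM, and they held 1.37% and 1.30% of TPM. Below asp-1 came act-5, the actin of the intestinal microvilli, with 2181 and 2162 TPM, and the aspartyl protease asp-3 with 1347 and 1246 TPM. The acyl-CoA dehydrogenase acdh-1, part of a propionate breakdown route, had 835 and 682 TPM, and the peptide transporter pept-1 had 150 and 126 TPM. The transcription factor genes that specify this tissue were low beside its enzymes, with 7.91 and 6.69 TPM for elt-2 and 23.4 and 19.2 TPM for elt-7. Protease families that serve digestion and lysosomes were abundant too: the 17 aspartyl protease genes held 1.1% and 1.01% of TPM, and the 10 cysteine cathepsin genes were all detected, with cpr-4 highest at 985 and 1090 TPM. The 21 vacuolar ATPase subunit genes, the acid pump of lysosomes and of several epithelia, held 0.955% and 0.873%, led by vha-2 with 1799 and 1559 TPM.

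Muscle genes came next. The 26 body wall muscle genes were all detected at a median of 88.1 TPM and held 0.816% and 0.815% of TPM. The myosin regulatory light chain mlc-2 had 1561 and 1781 TPM, the actin act-4 had 1211 and 1046 TPM, and the troponin C pat-10 had 612 and 730 TPM. Of the heavy chains, unc-54 had 606 and 548 TPM and myo-3 had 40.5 and 34 TPM. hlh-1, the MyoD-related factor of this muscle, had 13.6 and 10.2 TPM, and the giant protein gene ttn-1 had 6.21 and 4.52 TPM. The 9 pharyngeal muscle genes had a median of 134 TPM, led by the troponin I tni-4 (267 and 289 TPM), the troponin T tnt-4 (212 and 209 TPM) and the myosin myo-2 (221 and 186 TPM). The 7 pharyngeal gland genes were detected but low, at a median of 2.96 TPM, except phat-6 with 77.1 and 87.3 TPM; hlh-6, the gland factor, had 4.65 and 4.39 TPM and phat-3 had 4.34 and 4.04 TPM.

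Neuronal genes were detected throughout. The 22 pan-neuronal genes had a median of 39.4 TPM, and the highest belonged to neuropeptide processing: sbt-1, a chaperone of the proprotein convertase (400 and 417 TPM), egl-21, a carboxypeptidase (422 and 373 TPM), and egl-3, the convertase itself (378 and 318 TPM). Of the 31 FMRFamide-like peptide genes 30 were detected, with flp-1 highest at 342 and 362 TPM and flp-23 at or under the floor. Of the 71 neuropeptide-like genes 67 were detected, led by nlp-33 with 363 and 359 TPM, a gene that also counts among the epidermal antimicrobial peptides. The 18 genes of neurotransmitter synthesis and transport were all detected at a median of 12.9 TPM. The glutamate decarboxylase unc-25 had 51.8 and 48.4 TPM, the amine decarboxylase bas-1 had 49.2 and 47.9 TPM, the acetylcholinesterase ace-2 had 42.5 and 35 TPM, and the serotonin enzyme tph-1 had 2.89 and 2.31 TPM. The 20 genes of sensory cilia were all detected at a median of 4.01 TPM. The highest were daf-19, the RFX factor of ciliated neurons (18.6 and 16.3 TPM), bbs-5 (10.5 and 10.7 TPM) and the kinesin subunit klp-11 (11.4 and 9.41 TPM).

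Smaller tissues were also seen. The 9 glial genes were all detected, at a median of 6.37 TPM, and 6 reached 1 TPM in both libraries. The highest were vap-1, a secreted protein of the amphid sheath (79.8 and 77.1 TPM), lin-26, a factor shared with the epidermis (62.3 and 49.2 TPM), and kcc-3 (8.86 and 7.33 TPM). At the low end, delm-1 had 6 and 5 counts, hlh-17 had 9 and 14 counts and ptr-10 had 0.549 and 0.536 TPM. All 8 matched excretory genes were detected, led by vha-8 (748 and 718 TPM), a pump subunit used by other tissues too, exc-9 (58.6 and 55.4 TPM) and the water channel aqp-8 (56.9 and 44.7 TPM). All 4 coelomocyte genes were detected, the highest being cup-5 (14.5 and 11.5 TPM), cup-4 (11.7 and 9.21 TPM) and unc-122 (7.42 and 7.88 TPM).

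Epidermal genes were detected but low. All 26 were detected, at a median of 3.48 TPM, and 18 reached 1 TPM in both libraries. The transcription factor genes were the highest of the list: lin-26 (62.3 and 49.2 TPM), the GATA factors elt-3 (30.5 and 24.6 TPM) and elt-1 (21.3 and 17.9 TPM). The cuticle furrow collagens were lower: dpy-2 had 3.12 and 3.84 TPM, dpy-10 had 3.01 and 2.57 TPM, dpy-9 had 1.41 and 1.64 TPM and dpy-8 had 0.554 and 0.858 TPM. dpy-7 had 21 and 16 counts, or 0.507 and 0.340 TPM, and dpy-3 had 0.632 and 0.212 TPM. Among the 20 body-shape collagens, named for the dumpy, roller, blistered or squat animals their mutants make, 14 were detected, and the highest, sqt-3, had 8.97 and 5.17 TPM. Of the genes known from moulting, mlt-10 had 5.31 and 5.04 TPM, mlt-11 had 0.488 and 0.38 TPM and nhr-23, a nuclear receptor of the moulting cycle, had 10.1 and 7.71 TPM. In the numbered collagen family the range was wider: of 156 genes 66.7% were detected, 13 had no count, and 12 reached 100 TPM in both libraries. The highest of these was col-166 (chromosome X, 6280016 to 6280921), with 30366 and 40085 counts or 828 and 963 TPM, followed by col-42 (417 and 551 TPM), col-144 (459 and 450 TPM) and col-160 (329 and 327 TPM). In the seam, the lateral epidermal stem cells, 8 of 9 genes were detected. The hedgehog-related grd-10 (188 and 229 TPM) and grd-3 (87.6 and 96.2 TPM) and the GATA factor egl-18 (32.3 and 30.6 TPM) were highest, and nhr-73 had 3 and 2 counts.

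**Figure D3:**
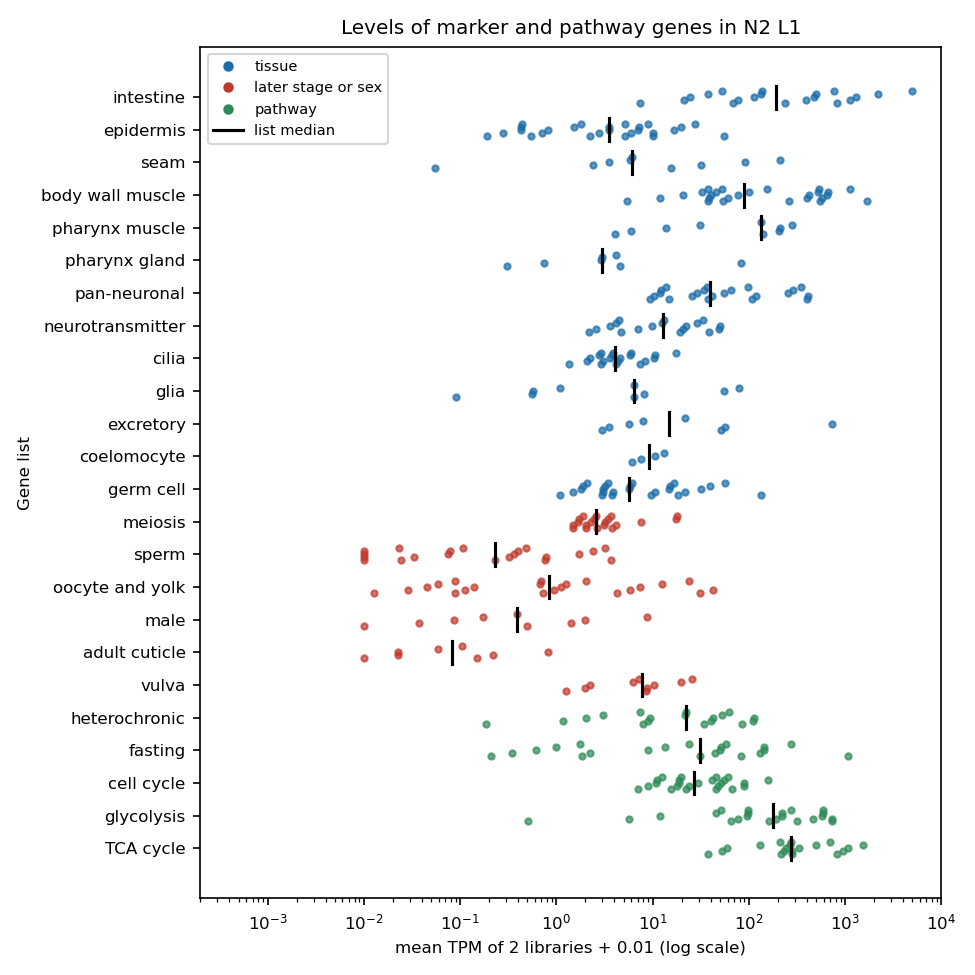
Mean TPM of the 2 libraries plus a small constant (horizontal axis, log scale) for every gene of 24 lists, with tissue lists in blue, lists of later stages or of the male in red and pathway lists in green; a black line marks each list's median. The intestine list has a median of 189 TPM and the epidermis list 3.48 TPM. The leftmost points of the sperm, male and adult cuticle lists are genes with no count.

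Genes of the germ cell list were present, mostly at low level. Whole-animal RNA does not show which cells their messages came from. All 26 germ cell genes were detected, at a median of 5.69 TPM. The highest were car-1 (144 and 125 TPM), ifet-1 (60.6 and 52 TPM) and the Piwi protein prg-1 (42.1 and 37.6 TPM). The P granule genes glh-1 and pgl-1 had 17.8 and 19.2 TPM and 15.1 and 15.2 TPM, and nos-2, a Nanos gene of primordial germ cells, had 1.42 and 2.73 TPM. The 20 meiosis genes were all detected too, though germ cells enter meiosis only at later stages; their median was 2.60 TPM, and him-17 (19.1 and 16.8 TPM), him-5 (18.4 and 16.2 TPM) and him-8 (8.06 and 7.24 TPM) were highest. The synaptonemal complex gene syp-1 had 3.76 and 4.64 TPM.

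The oocyte and yolk list ran over a wide range, with a median of 0.823 TPM, and 18 of its 22 genes were detected. Genes for RNA-binding proteins that the mother loads into the embryo were detected, with pos-1 (chromosome V, 8414086 to 8415254) at 1467 and 2101 counts or 37.9 and 47.8 TPM, mex-3 at 30.3 and 31.7 TPM and spn-4 at 21.8 and 25.8 TPM. All of pos-1, mex-3, spn-4, mex-5, mex-6, oma-1 and oma-2 were higher in replicate 2. In the middle of the list, the oocyte genes cbd-1 (2.2 and 1.85 TPM), egg-3 (1.43 and 1.09 TPM), rme-2, the yolk receptor (1.15 and 1.06 TPM), puf-5 (0.890 and 0.986 TPM), egg-2 (0.791 and 0.626 TPM), chs-1 (0.779 and 0.575 TPM) and egg-1 (0.483 and 0.865 TPM) were detected. The 6 vitellogenin genes, which encode yolk made in the adult intestine, were lower: vit-1, the highest, had 28 and 20 counts or 0.159 and 0.10 TPM, and vit-5 had 0 and 1 count. perm-2 and perm-4, genes of the eggshell's vitelline layer, had 3 and 1 and 1 and 2 counts.

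Sperm, male and adult cuticle genes were low, and many stood at or under the floor of 3 counts. Of 21 genes matched to the sperm list 12 were detected, at a list median of 0.219 TPM. The highest were spe-15 (3.67 and 3.70 TPM), spe-4 (3.07 and 3.26 TPM) and fog-1 (2.62 and 2.17 TPM). No count was found for spe-11, ssp-16 or either gene named ssp-9, and ssp-10, spe-38, snf-10 and gsp-3 had at most 2 counts in a library. Of the 31 major sperm protein genes, which encode the cytoskeletal protein of nematode sperm, 26 had no count and 30 had at most 3 in each library. The only detected member was msp-31, with 4 counts in each library. How reads that match several genes were counted is not given, so the counts of single msp genes are uncertain. Of the 9 matched male genes 5 were detected, led by cwp-4 (9.59 and 7.73 TPM), pkd-2 (1.48 and 2.51 TPM) and cwp-5 (1.55 and 1.30 TPM). lov-1, the partner of pkd-2 in male sensory neurons, had no count and, at 9855 bases, was the longest gene with none. cwp-1 had 2 and 0 counts, and dmd-3 had 0 and 2. No gene of the adult cuticle list reached 1 TPM. Its highest members were col-62 (0.791 and 0.821 TPM), col-63 (0.166 and 0.25 TPM) and rol-6 (0.124 and 0.153 TPM). lon-3 had 2 counts in each library, bli-2 and col-7 had 0 and 1, and col-19 (chromosome X, 421707 to 422691), the adult collagen whose promoter is used in the maIs105 array, had no count. The 10 vulva genes were, like the meiosis genes, all detected at a median of 7.83 TPM, with the growth factor receptor egl-15 (28.9 and 22.1 TPM), the Hox gene lin-39 (21.7 and 17.5 TPM) and the EGF receptor let-23 (11.5 and 9.06 TPM) highest; each of these also acts in other larval cells.

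All 18 developmental timing genes were detected, at a median of 22 TPM and over a wide range. lin-28 (chromosome I, 8407630 to 8410804), an RNA-binding protein of early larval fates, had 4965 and 5603 counts or 111.7 ± 0.49 TPM (SD, n = 2), and lin-14 (chromosome X, 11465560 to 11485871), a transcription factor of the L1 stage, had 96.8 and 72.3 TPM. By mean level pan-1 stood between them, with 124 and 96.8 TPM. hbl-1, another factor of early larval fates, had 9.34 and 6.52 TPM. Of the factors of the change from larva to adult, lin-29 had 1.49 and 0.817 TPM and its cofactor mab-10 had 0.171 and 0.182 TPM. lin-42, the period homologue that cycles with the moults, had 2.07 and 1.97 TPM, and myrf-1 and myrf-2, factors that switch on the microRNA lin-4, had 44.1 and 36.5 TPM and 69.6 and 54 TPM.

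Genes of the fasting list and of the cell cycle list were detected together. For these larvae the labels do not state whether food was given before harvest. In the fasting list all 21 genes were detected, at a median of 30.7 TPM, and 17 reached 1 TPM in both libraries. The highest was icl-1, then the desaturase fat-6 (275 and 270 TPM) and the lysosomal lipase lipl-5 (152 and 136 TPM). The lowest were lipl-4 (0.158 and 0.238 TPM) and lipl-3 (0.326 and 0.344 TPM). The trehalose synthase tps-2 had 148 and 139 TPM, and daf-16, the FOXO factor of the starvation response, had 34.7 and 26.7 TPM. Of the known targets of daf-16, sod-3 had 0.798 and 0.397 TPM and hsp-12.6 had 1.48 and 2.22 TPM, while mtl-1 had 52.3 and 48.7 TPM. All 24 cell cycle genes were detected at 7.03 TPM or more on average. The replication clamp pcn-1 had 144 and 174 TPM, the cyclin cyb-3 had 79.8 and 99.3 TPM and the ribonucleotide reductase rnr-2 had 83.8 and 93.5 TPM. The 6 subunits of the replicative helicase, mcm-2 to mcm-7, lay between 39.6 TPM in mcm-2 and 56.5 TPM in mcm-5 in single libraries. The cell cycle inhibitor cki-1, which is in both the fasting and the cell cycle list, had 24.5 and 23.3 TPM.

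Gene families differed in how many members were seen at all. For comparison, 75.8% of all genes were detected, and 81.2% of genes with a given name. Families near these shares, such as MATH and BTB (76.7%) or abu and pqn (80%), do not stand out by their detection. The 6 families of at least 30 genes in which every member was detected were the cytosolic ribosomal proteins, translation initiation factors, aminoacyl-tRNA synthetases, proteasome subunits, short-chain dehydrogenases and glutathione transferases. Proteasome genes were even, at a median of 149 TPM with pas-3 highest (213 and 253 TPM). The glutathione transferase gst-27 had 182 and 195 TPM and the dehydrogenase dhs-25 had 181 and 193 TPM. Chaperonin and HSP70 and HSP90 genes, 18 in all, were detected at a median of 293 TPM, while the small heat shock genes had a median of 7.76 TPM, led by hsp-12.2 with 286 TPM in both libraries.

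Structural and metabolic families were mostly detected. All 16 tubulin genes were, with tbb-2 highest (1052 and 1020.2 TPM), and all 13 basement membrane genes, with ost-1, the SPARC homologue, highest (962 and 987 TPM). Of the 18 fatty acid desaturase and elongase genes 17 were detected, led by the desaturase fat-2 (1087 and 997 TPM). The peroxiredoxin prdx-2 (771 and 799.7 TPM), the ferritin ftn-2 (682 and 654 TPM) and the galectin lec-6 (580.5 and 704 TPM) were the highest of groups of 11, 4 and 12 genes in which every member was detected. Of 58 transthyretin-related genes 47 were detected, led by ttr-16 with 707 TPM in both libraries.

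Most members of the signalling and transcription factor families were detected. For comparison, the median over all genes of the data, detected or not, was 4.05 TPM. Of 269 nuclear hormone receptor genes, a family much enlarged in this animal, 225 (83.6%) were detected at a median of 4.58 TPM over all members, and nhr-97 was highest with 142 and 116 TPM. Of 63 homeobox genes named ceh, 55 were detected, led by ceh-20, a Pbx relative, with 88.9 and 74.5 TPM. Ion channel genes were mostly detected: 76 of 83 ligand-gated channels, with lgc-34 highest (38.3 and 36.2 TPM), and 57 of 59 potassium channels, with twk-18 highest (69.0 and 57.5 TPM). Of 39 insulin-like peptide genes 28 were detected, led by ins-27 with 144 and 132 TPM, and daf-28, whose peptide promotes growth over dauer arrest, had 82.1 and 63.4 TPM. All 25 innexins, the gap junction proteins of invertebrates, were detected, led by inx-12 with 282 and 293 TPM.

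Further families, some of which meet the environment, ranged widely. Of 240 C-type lectin genes 127 (52.9%) were detected and 59 had no count, yet clec-63 reached 1197 ± 3.53 TPM (SD, n = 2). The lysozyme lys-1 had 480 and 498 TPM, and among 65 antimicrobial peptide genes 39 were detected. Among 74 cytochrome P450 genes 70 were detected, at a median of 1.99 TPM with cyp-35A2 highest (42.4 and 41.2 TPM), and of 67 UDP-glucuronosyltransferase genes 65 were, with ugt-22 highest (119.6 ± 4.96 TPM, SD, n = 2). F-box genes, 322 in number, had a median of 0.270 TPM with 196 detected, and fbxa-24 was highest at 44.8 and 36.4 TPM. The hedgehog-related genes, led by grd-13 (208 and 232 TPM), had 40 of 59 members detected, and the patched-related genes, led by ptc-1 (105 and 79.9 TPM), had all 26. Of 70 abu and pqn genes 56 were detected, led by pqn-59 (302 and 271 TPM), and of 39 astacin proteases 28, led by dpy-31 (68.3 and 63.4 TPM). Of 90 MATH and BTB genes 69 were detected, led by math-33 (62 and 50.9 TPM), of 38 pals genes 26, led by pals-23 (19.4 and 14.8 TPM), and of 19 Argonaute genes 16, led by the microRNA Argonaute alg-1 (46.4 and 35.4 TPM).

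Chemoreceptors and histones were, beside the major sperm proteins, the families of at least 30 genes with the smallest share detected. Of 1310 chemoreceptor genes, each used by few neurons in what is known of the family, 453 (34.6%) were detected, 326 had no count and 60 reached 1 TPM in both libraries. Together they held 0.0538% of TPM in replicate 1 and 0.0411% in replicate 2. The exceptions stood far above: srw-85 (chromosome V, 19429387 to 19431136) had 3211 and 3204 counts or 57.2 and 50.3 TPM, srr-4 had 42.1 and 38.7 TPM and srw-86 had 19.4 and 17.6 TPM. By name, the srbc genes lacked a count most often among the chemoreceptor classes of at least 20 genes, in 32 of 71, followed by srw with 48 of 109 and srj with 16 of 39. Of 81 histone genes 33 were detected and 20 had no count. Those with high levels included his-72, a variant of histone H3, at 515 and 496 TPM, and the linker histone his-24 at 402 and 379 TPM. Messages of replication-dependent histones end without a poly(A) tail, these libraries were made from polyA RNA, and the histone copies are near-identical, so the low values of single copies are uncertain. The same caution applies to act-1, act-2 and act-3, with means between 276 and 447 TPM, and to 205 genes that share a symbol with another gene, 118 of which had no count.

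**Figure D4:**
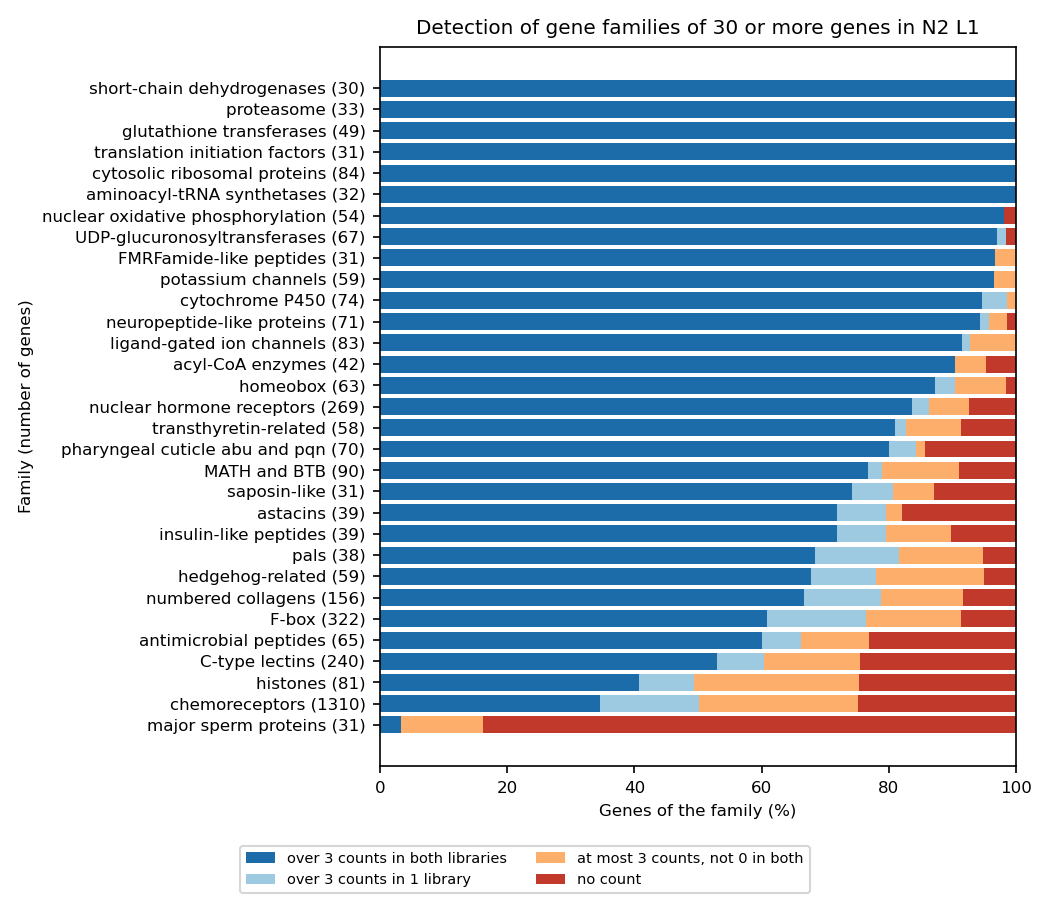
Share of genes (horizontal axis, percent) of each family with 30 or more members by state, from detected in both libraries (dark blue) to no count in either (red); the number of genes stands after each family's name. All 84 genes matched as ribosomal proteins were detected, against 453 of 1310 chemoreceptors and 1 of 31 major sperm proteins.

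The 2040 genes with no count were shorter than detected genes and more often had a sequence name only. Their median length was 681 bases, against 1277 bases for detected genes. A sequence name only was held by 1205 of them, against 8981 of all 20190 genes. Pseudogenes made up 48 of them and 200 of all genes, and 35 of them were among the 85 genes not matched to the annotation. A count of 0 allows a level of up to 0.0704 CPM in replicate 1 and 0.0654 CPM in replicate 2. At 1103 bases, the median length of all genes, that is 0.0786 and 0.0692 TPM. Most genes with no count are shorter than this, and for them the limit in TPM is higher. At the same TPM a shorter gene also gets fewer counts. In the other 4 libraries of the series, 1136 of the 2040 genes also had no count and 904 had some. Only T16H12.13 and chil-26 had more than 3 counts in each of those 4 libraries.

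Absent genes were spread unevenly over the genome. Chromosome V, which holds many chemoreceptor genes, had no count for 14.4% of its 4993 genes and detection for 66.8%. Chromosome III stood at the other end, with 4.65% of 2669 genes lacking a count and 85.9% detected. On chromosome V the outer stretches, divided from the centre so that each chromosome falls into 3 equal lengths, had no count for 17.9% of genes and the central stretch for 8.01%. The central stretch was lower on I, II, IV and X too, and on III the values were 4.66% in the centre and 4.64% outside. The median level over all genes ran from 1.12 TPM on chromosome V to 12.5 TPM on chromosome III, and on X it was 4.93 TPM. Although 83.1% of X genes were detected, their median among detected genes was 7.95 TPM, against 5.96 TPM on V and 16.9 TPM on III.

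**Figure D5:**
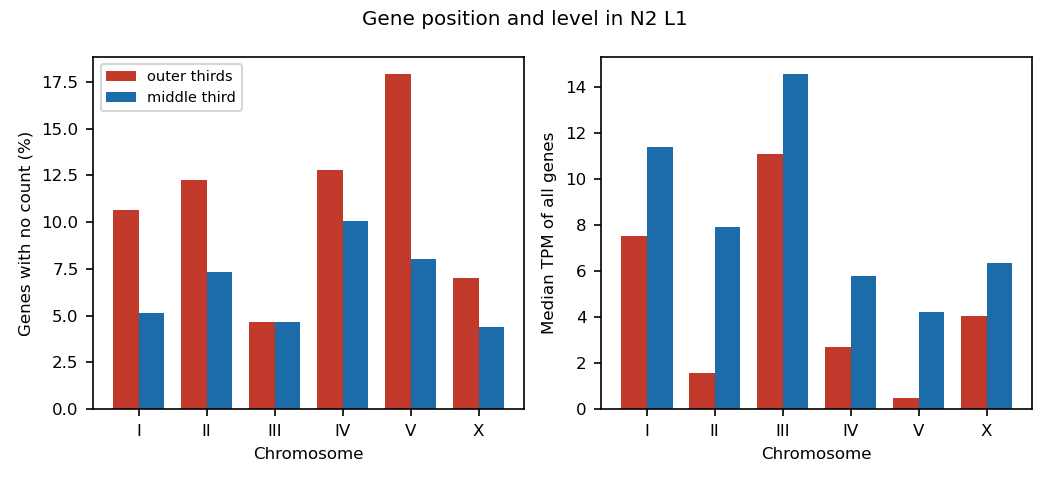
Share of genes with no count (left, percent) and median TPM of all genes (right) by chromosome, with genes in the outer stretches in red and genes in the central stretch in blue. Chromosome V has 17.9% of outer genes with no count against 8.01% in its centre, and chromosome III shows no such gap.

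The spread between the replicates sets how finely these levels can be read. Of 7865 genes with a mean of at least 10 TPM, 3 differed by more than 2-fold, and the SD of the log2 ratio over these genes was 0.18. Those 3 were ND6, a second mitochondrial gene listed as WBGene00010958 (12.8 and 33.1 TPM) and T06E8.8 (28.9 and 12.1 TPM), whose deposited length is 42 bases. The other genes with the largest ratios were C01G6.3 (10.1 and 19.8 TPM), F59C12.4 (79.2 and 147 TPM) and nlp-34 (16 and 27.7 TPM), all higher in replicate 2, and R10E9.4 (90.2 and 50.9 TPM), H40L08.8 (21.9 and 12.3 TPM), C34E10.12 (15.7 and 8.77 TPM) and WBGene00303075 (62.6 and 33.8 TPM), all higher in replicate 1. The deposited lengths of R10E9.4 and H40L08.8 are 42 and 33 bases, so few counts give a high TPM. Across genes, r of log2(TPM + 1) between the libraries was 0.997, a description over genes that are not independent replicates. The libraries still differed beyond counting noise, with a chi-square per degree of freedom of 23.8 over 14478 genes, so they are not 1 library deposited more than once. The ratio moved with gene length: the median log2 ratio of replicate 1 over replicate 2 was -0.04 in the shortest of 10 length classes (median 466 bases) and 0.27 in the longest (median 4357 bases). Where this trend comes from, and its part in the difference of the ribosomal protein share between the replicates, was not tested.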

How the data were processed

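PolyA RNA of whole L1 larvae was sequenced in 6 libraries, of which the 2 N2 libraries were analysed. The authors deposited raw counts per gene with a length per gene in bases (a column named width, per the file headers). The authors also deposited log2 values, which equalled log2 of the scaled count plus 8 and were not used further. The submitters' processing notes name ce11 and HISAT2; which counter, annotation and strand setting were used is not given in the sources used here, so overlapping or antisense genes may share reads. CPM and TPM were computed with pandas 2.3.3, and the TPM script was tested on simulated counts. Other scalings used edgeR 4.0.16 (TMM) and DESeq2 1.42.0 (size factors). Names and positions came from Ensembl release 115 of WBcel235, the ce11 assembly, for 20105 of 20190 genes. Ribosomal protein names were also looked up in RefSeq's table of the same assembly.

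Named genes were the 20 most abundant, the 3 highest and all near-absent members of each list, the highest of each family and the 5 most extreme replicate ratios each way. Other named genes were chosen for their known role after their values were seen. Members and lists were chosen with earlier results of these data known, and family name patterns were corrected after values were seen. Families overlap, so shares do not add up. List names opt-2, ceh-26 and plg-1 matched no gene.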

Additional observations from a re-analysis of the deposited data

Results flagged for a closer look

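Among the 2040 genes with no count in either N2 library, 2 had more than 3 counts in each of the other 4 libraries, which lie outside the N2 levels described above. T16H12.13 had 0 and 0 counts in N2, against 10 and 5 in HW3826 and 6 and 6 in GR1395, a total of 27. chil-26, a chitinase-like gene, had 0 and 0 counts in N2, against 5 and 15 in HW3826 and 10 and 4 in GR1395, a total of 34. No test was run on these differences, and the genes were picked out of 2040 for showing them.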

How the results depend on the processing

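Of 56 alternative settings over 9 results, 51 left the value within 1.5 times of a count or within 1 SD of a share, and 5 moved it. The 51 include leaving out each replicate for the ribosomal protein share. With 2 libraries that shift is bound to be under their own SD, so these settings could not have moved it. Other settings changed the input little, such as TMM factors of 1.02 and 0.984 or leaving out genes with 3 or fewer counts. The tally of 51 is therefore no measure of how firm the results are. Counting genes with at most 3 counts in each library as absent gave 3884 in place of 2040. By CPM, with no length correction, 410 genes in place of 160 held 50% of the total, and the ribosomal protein share was 19% in place of 35.2%. With 100 bases taken off each length that share was 37.3%. With the 3 genes that only RefSeq names as ribosomal proteins, an alternative chosen after seeing the data, it was 36.5%. Without the filter on level, 1452 of 16871 genes counted in both libraries differed by more than 2-fold, in place of 3 of 7865. Leaving out each replicate in turn gave 15778 to 15842 genes detected, 2658 to 2701 with no count, 147 to 175 genes holding 50% of TPM and a ribosomal protein share of 34.1% to 36.4%. The count of genes that differ between replicates needs both libraries, so leaving a replicate out gives no value for it. Thinned to 20000000 counts, the libraries had 14280 genes detected and 2642 with no count, so depth limits both numbers. No paired analysis was possible because the N2 libraries form a single group and no result comes from a test.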
